A study of Mus musculus with 11 samples.

Results

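The genes described here were 40 cell cycle genes, of which 34 drive or mark proliferation and 6 restrain it, followed across 6 sorted mouse cell populations on 11 expression arrays. The members were listed by symbol, and each gene was read from 1 probe set, the one with the highest mean over all arrays among those annotated with that gene alone. Such a probe set was found for 39 of the 40 genes, of 18193 genes with 1 on the array. Cyclin B1 (Ccnb1) had none in the annotation used and was not analysed here. The 39 genes were 14 genes of G2 and mitosis, 11 of S phase and DNA replication, 8 G1 cyclins and kinases, and 6 inhibitors or pocket proteins.

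The study compared periosteal skeletal stem cells (P-SSCs) and bone marrow skeletal stem cells (BM-SSCs) with other stromal cells and with blood cells. P-SSCs were CD45-CD31-Ter119-CD105+CD140a+ cells of periosteum, positive for an Mx1-Cre-driven Tomato reporter and negative for Osteocalcin-GFP. BM-SSCs had the same surface markers and were bone marrow cells positive for both Mx1-Cre-driven Tomato and Nestin-GFP. Nes+ BMSCs were sorted by Nestin-GFP whatever their Mx1 status, CD51+ BMSCs by CD51 among CD45-CD31-Ter119- marrow cells (the study's text adds CD105 and CD140a), Osx+ cells, the osteolineage precursors, by an Osterix reporter among CD45-CD31-Ter119- cells, and CD45+ cells were blood lineage cells of the marrow. Per the study's methods, Mx1 reporter mice were irradiated with 9.5 Gy at 4 weeks of age and given wild-type C57BL/6 marrow, and 6 to 8 weeks later received 25 mg/kg pIpC every other day for 10 days. The Mx1 promoter is induced by interferon and is also active in blood cells. The treatment and age of the mice behind the other populations are not given in the sources used here. The labels name periosteal tissue as the source of the Nes+ sample, whose title says bone marrow, and of the Osx+ samples. Per the methods RNA was pooled from 2 or 3 mice of both sexes. Every population had 2 arrays except Nes+ BMSCs, which had a single one.

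A cell enters the cycle when D-type cyclins with Cdk4 or Cdk6, and then E-type cyclins with Cdk2, phosphorylate the retinoblastoma family. This releases E2F factors, which switch on replication genes, while the mitotic genes follow later under B-Myb and FoxM1. In quiescent cells p130 (Rbl2) and E2F4 form the DREAM complex, which holds both groups off, and CDK inhibitors of the Cip/Kip and INK4 families block the kinases. Marrow stromal stem cells and hematopoietic stem cells are known as slowly dividing, whereas the blood precursors that fill the marrow divide often.

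Values are normalized log2 levels, so 1 unit is a doubling of the signal. They compare a gene between arrays, not 1 gene with another. In cells sorted in bulk, fewer dividing cells and less RNA per dividing cell cannot be told apart. The array labelled P-SSC array 2 stood apart from all others, and BM-SSC array 2 less so. A median of 9 housekeeping genes reached 5.31 and 11.66 on these 2 arrays, and 12.28 to 12.99 on the other 9. Both arrays of a population correlated at 0.456 in P-SSCs and 0.771 in BM-SSCs, against 0.985 to 0.995 in Osx+, CD51+ and CD45+ cells. Values are on all arrays unless stated, and the counts of calls and the main differences are therefore also given without array 2 of both SSC populations, where each SSC population is 1 array whose spread is assumed to be that of the others. Several genes used for sorting did not follow the labels. Ptprc, which encodes CD45, read 10.23 and 10.17 in CD51+ BMSCs, against 12.06 and 12.05 in CD45+ cells. Pdgfra, which encodes CD140a, read 11.28 and 4.41 in P-SSCs, and 3.62 and 3.42 in CD45+ cells, so that P-SSC array 2 was close to the blood cells. Nes, the gene of the Nestin reporter, read 6.94 and 7.42 in P-SSCs, which were not sorted by it, beside 6.17 and 7.08 in BM-SSCs. The Mx1 transcript, which is not the reporter, read 4.09 and 5.70 in P-SSCs and 4.92 and 4.28 in BM-SSCs, against 7.03 and 6.72 in CD45+ cells. Itgav, which encodes CD51, was 10.10 and 10.27 in CD51+ BMSCs and 10.73 and 10.79 in Osx+ cells, and Pecam1, which encodes CD31, was 6.34 on P-SSC array 1, against 6.64 and 6.75 in CD45+ cells.

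The clearest pattern was the gap between all 5 stromal populations and CD45+ cells in the mitotic genes. Both CD45+ arrays lay above all 9 other arrays for 26 of the 33 proliferation genes, whereas 23.2% of all genes on the array did so. The share was 14 of 14 among the mitotic genes and 9 of 11 among the replication genes, with Pcna and Tyms as exceptions. It was 3 of 8 among the G1 genes (Ccnd3, Ccne2 and Cdk2). Among the inhibitors Cdkn1b, Cdkn2c, Cdkn2d and Rbl2 were also highest in CD45+ cells, and Cdkn1a and Cdkn1c lay below all 9 other arrays, as 13.8% of all genes did. The median level of the 33 proliferation genes was 7.02 and 5.15 on the P-SSC arrays, 6.84 and 5.41 on the BM-SSC arrays, 6.14 on the Nes+ array, 7.66 and 7.12 on the CD51+ arrays and 6.65 and 7.21 on the Osx+ arrays, against 9.03 and 9.11 on the CD45+ arrays.

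**Figure D1:**
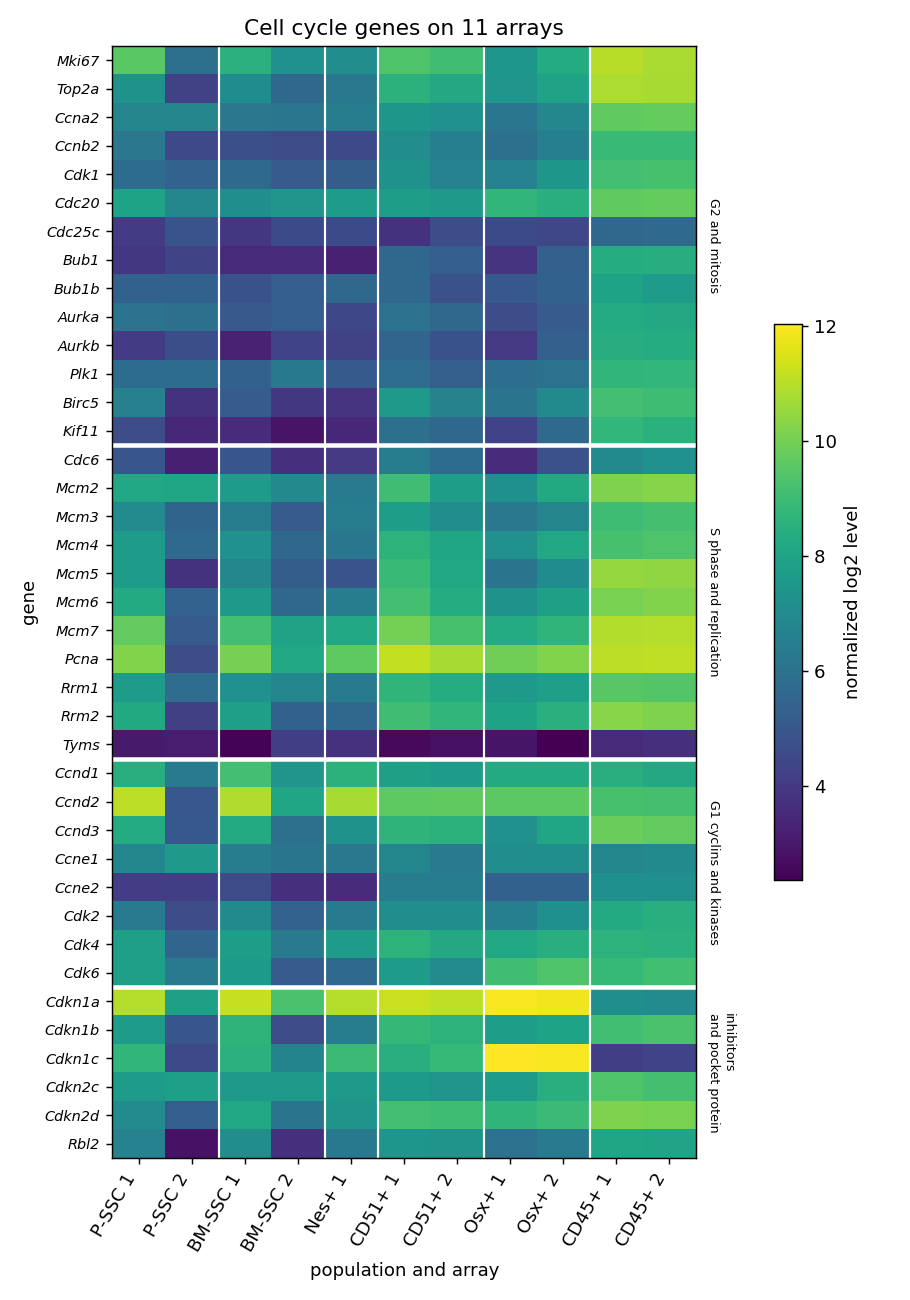
Normalized log2 level (colour) of the 39 measured genes (rows, grouped by role) on the 11 arrays (columns, by population). The 2 CD45+ columns are brightest in the rows of the mitotic and, apart from Pcna and Tyms, the replication genes, and dark at Cdkn1a and Cdkn1c, and the column of P-SSC array 2 is dark in most rows.

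Among the mitotic genes, Mki67, the marker of cycling cells, read 9.56 and 5.92 on the P-SSC arrays, 8.54 and 7.24 on the BM-SSC arrays, 7.12 on the Nes+ array, 9.38 and 9.07 on the CD51+ arrays and 7.44 and 8.31 on the Osx+ arrays, against 11.01 and 10.81 on the CD45+ arrays. The 2 P-SSC arrays held both the highest and the lowest stromal value. Top2a, the topoisomerase that untangles replicated chromosomes, read 7.29 and 4.28 on the P-SSC arrays, 7.08 and 5.58 on the BM-SSC arrays, 6.25 on the Nes+ array, 8.58 and 8.18 on the CD51+ arrays and 7.41 and 7.94 on the Osx+ arrays, against 10.83 and 10.78 on the CD45+ arrays. On this probe set CD51+ BMSCs came next to CD45+ cells, and P-SSC array 2 was lowest. A second Top2a probe set was highest on P-SSC array 2, at 6.92, and BM-SSC array 2, at 6.77. It read 5.71 and 5.40 on the CD51+ arrays and 5.86 and 6.19 on the CD45+ arrays. Cdk1, the kinase that drives entry into mitosis, read 5.78 and 5.40 on the P-SSC arrays, 5.72 and 5.19 on the BM-SSC arrays, 5.21 on the Nes+ array, 7.28 and 6.64 on the CD51+ arrays and 6.65 and 7.47 on the Osx+ arrays, against 9.13 and 9.21 on the CD45+ arrays. CD51+ and Osx+ cells overlapped and lay above both SSC populations, which lay together with Nes+ BMSCs between 5.19 and 5.78. Ccna2, the cyclin of S phase and G2, read 6.75 and 6.75 on the P-SSC arrays, 6.18 and 6.16 on the BM-SSC arrays, 6.47 on the Nes+ array, 7.49 and 7.24 on the CD51+ arrays and 6.17 and 6.85 on the Osx+ arrays, against 9.66 and 9.73 on the CD45+ arrays. All 9 stromal arrays fell within 6.16 and 7.49, far below the blood cells, and the 2 P-SSC arrays had the same value. Birc5 (survivin), a subunit of the chromosomal passenger complex, read 6.57 and 3.79 on the P-SSC arrays, 5.13 and 3.92 on the BM-SSC arrays, 3.81 on the Nes+ array, 7.61 and 6.69 on the CD51+ arrays and 6.10 and 6.94 on the Osx+ arrays, against 9.14 and 9.05 on the CD45+ arrays. Here P-SSC array 2, BM-SSC array 2 and the Nes+ array were all under 4.

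Bub1, a kinase of the spindle checkpoint, read 3.95 and 4.34 on the P-SSC arrays, 3.52 and 3.53 on the BM-SSC arrays, 3.24 on the Nes+ array, 5.63 and 5.26 on the CD51+ arrays and 3.84 and 5.34 on the Osx+ arrays, against 8.36 and 8.40 on the CD45+ arrays. Kif11, the motor that separates spindle poles, read 4.65 and 3.48 on the P-SSC arrays, 3.58 and 2.87 on the BM-SSC arrays, 3.43 on the Nes+ array, 5.91 and 5.64 on the CD51+ arrays and 4.30 and 5.70 on the Osx+ arrays, against 8.75 and 8.53 on the CD45+ arrays. For both genes BM-SSCs and Nes+ BMSCs lay at or below 3.58, and the 2 Osx+ arrays differed by over 1 unit. These low values were near the floor of the array. Bub1 stood at percentiles 21.0 and 11.2 of all genes on the BM-SSC arrays and 11.3 on the Nes+ array. Kif11 stood at 21.9, 3.92 and 14.2 on the same arrays. Aurkb, the kinase of the chromosomal passenger complex, read 4.09 and 4.68 on the P-SSC arrays, 3.34 and 4.31 on the BM-SSC arrays, 4.24 on the Nes+ array, 5.52 and 4.81 on the CD51+ arrays and 3.98 and 5.33 on the Osx+ arrays, against 8.39 and 8.35 on the CD45+ arrays. CD51+ and Osx+ cells overlapped, and CD51+ BMSCs lay above both SSC populations and Nes+ BMSCs. Plk1, a kinase of mitotic entry and spindle assembly, read 5.79 and 5.78 on the P-SSC arrays, 5.35 and 6.28 on the BM-SSC arrays, 5.12 on the Nes+ array, 5.82 and 5.28 on the CD51+ arrays and 5.85 and 5.98 on the Osx+ arrays, against 8.71 and 8.76 on the CD45+ arrays. It was nearly flat over the 9 stromal arrays, which lay between 5.12 and 6.28, and array 2 of both SSC populations was not low here. The other 5 mitotic genes were Ccnb2, Cdc20, Cdc25c, Bub1b and Aurka, and each was likewise highest on the 2 CD45+ arrays.

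Most promoters of the mitotic members held the same sequence elements, which were read from the genome and not from these arrays. In RefSeq promoters of build GRCm38.p6 (250 bases before to 50 after the start), 32 of the 40 members had an entry, Ccnb1 included, and both strands were searched for the cell cycle homology region bound by DREAM and B-Myb or FoxM1 complexes (CHR, TTTGAA or TTCGAA), the CCAAT box of the factor NF-Y (CCAAT) and an E2F site (TTTCCCGC, TTTCGCGC, TTTGCCGC or TTTGGCGC). A CHR and a CCAAT box occurred together in 10 of 12 mitotic promoters, in 2 of 10 replication promoters, in 0 of 5 G1 promoters and in 0 of 5 inhibitor promoters, against 7.7% of all 27025 genes. An E2F site occurred in 5 of 10 replication promoters and 1 of 12 mitotic promoters, against 2.32% of all genes. A CHR was found in 19.4% of all genes and a CCAAT box in 37.9%, and among the members' 79 matches 3 pairs shared bases. The 250 bases before the start are shown for the 2 mitotic genes and the 1 replication gene with the most matches. Cdkn1c was also to be shown but had no promoter entry. All 3 genes lie on the minus strand, Top2a with chr11:99024190-99024439, Cdk1 with chr10:69352913-69353162 and Mcm7, a subunit of the replicative helicase, with chr5:138171884-138172133. Capitals mark matches of any of the 3 elements, and a match is a run of letters and not a measured binding site.
Top2a: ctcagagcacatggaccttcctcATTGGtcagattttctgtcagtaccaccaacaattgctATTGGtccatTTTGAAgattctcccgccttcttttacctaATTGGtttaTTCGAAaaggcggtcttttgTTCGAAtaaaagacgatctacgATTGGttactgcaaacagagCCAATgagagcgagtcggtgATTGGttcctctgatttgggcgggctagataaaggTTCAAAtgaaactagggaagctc
Cdk1: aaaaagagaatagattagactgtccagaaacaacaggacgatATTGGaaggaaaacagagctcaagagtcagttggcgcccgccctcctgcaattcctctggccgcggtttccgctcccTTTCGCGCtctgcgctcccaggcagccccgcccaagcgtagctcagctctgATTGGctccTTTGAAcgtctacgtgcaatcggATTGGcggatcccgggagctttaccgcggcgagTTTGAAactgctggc
Mcm7: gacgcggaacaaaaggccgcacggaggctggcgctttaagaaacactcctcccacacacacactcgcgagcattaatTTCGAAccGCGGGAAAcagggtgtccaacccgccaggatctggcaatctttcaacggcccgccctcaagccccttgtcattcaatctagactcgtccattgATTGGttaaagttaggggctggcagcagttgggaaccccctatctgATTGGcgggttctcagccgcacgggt
Top2a held 4 CHR and 6 CCAAT matches and no E2F match, and 10 matches in all were the most of any member. Cdk1 held 2 CHR, 3 CCAAT and 1 E2F match, and Mcm7 held 1 CHR, 3 CCAAT and 2 E2F matches, of which 1 CCAAT and 1 E2F match lay past the start and are not in the bases shown.

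The replication genes had a narrower gap. Mcm5, a subunit of the helicase that licenses origins, read 7.68 and 3.78 on the P-SSC arrays, 6.84 and 5.20 on the BM-SSC arrays, 4.87 on the Nes+ array, 8.89 and 8.17 on the CD51+ arrays and 6.08 and 7.06 on the Osx+ arrays, against 10.52 and 10.43 on the CD45+ arrays. CD51+ BMSCs were closest to the blood cells, and P-SSC array 2 and the Nes+ array were lowest. Rrm2, the regulated subunit of ribonucleotide reductase, read 8.23 and 4.19 on the P-SSC arrays, 7.84 and 5.37 on the BM-SSC arrays, 5.61 on the Nes+ array, 9.07 and 8.71 on the CD51+ arrays and 7.97 and 8.50 on the Osx+ arrays, against 10.33 and 10.17 on the CD45+ arrays. The stromal arrays other than P-SSC array 2, BM-SSC array 2 and Nes+ lay between 7.84 and 9.07. Pcna, the sliding clamp of the polymerases, read 10.20 and 4.65 on the P-SSC arrays, 10.06 and 8.17 on the BM-SSC arrays, 9.64 on the Nes+ array, 11.13 and 10.77 on the CD51+ arrays and 9.93 and 10.20 on the Osx+ arrays, against 11.08 and 11.10 on the CD45+ arrays. CD51+ array 1 lay just above both CD45+ arrays and CD51+ array 2 below them, and P-SSC array 2 was far below all others. Cdc6, which loads the helicase, Mcm2, Mcm3, Mcm4, Mcm6, Mcm7 and Rrm1 were highest in CD45+ cells. Tyms, thymidylate synthase, was at most 4.68 on all 4 of its probe sets and all arrays, near the floor of the array, and is not read further.

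**Figure D2:**
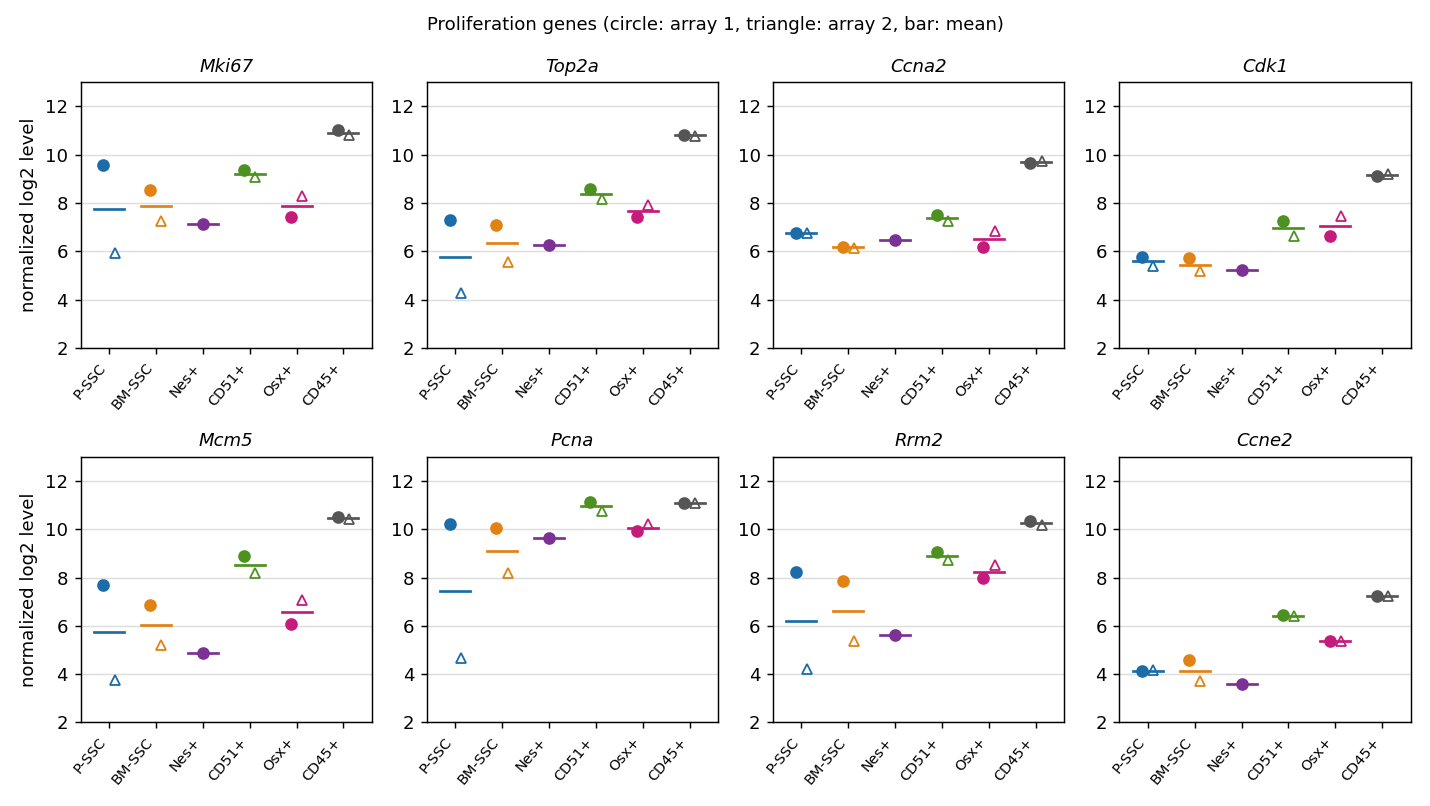
Normalized log2 level of 8 proliferation genes in the 6 populations, with 1 point per array and the mean as a bar. For Mki67, Top2a, Ccna2, Cdk1, Mcm5, Rrm2 and Ccne2 both CD45+ points lie above all others, and for Pcna the CD51+ points reach them.

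Each stromal population was then tested against CD45+ cells with limma, with p-values adjusted over all 45037 probe sets and a gene called at an adjusted p under 0.05. The 4 comparisons share both CD45+ arrays and 1 estimate of spread. In P-SSCs 20 of the 39 genes were lower and 0 higher, against 9.39% lower and 3.09% higher of all genes. The lower genes were 12 of 14 mitotic, 4 of 11 replication (Cdc6, Mcm3, Mcm5 and Rrm1), 2 of 8 G1 genes (Ccne2 and Cdk2) and the inhibitors Cdkn2c and Cdkn2d. The median difference of the 33 proliferation genes was -2.95, beside 0.19 over all genes, and the 9 housekeeping genes had a median difference of -3.86. Leaving out array 2 of both SSC populations, these medians were -2.02, 0.05 and -0.83, and the part of that array in the differences was not tested. Among called genes the largest differences were those of Top2a at -5.02 (SE 0.921, adjusted p = 0.0179), Mcm5 at -4.74 (SE 1.16, adjusted p = 0.0443) and Kif11 at -4.57 (SE 0.581, adjusted p = 0.00453), and in the fit without those 2 arrays they were -3.51, -2.79 and -3.99. On the second Top2a probe set the CD45+ arrays, at 5.86 and 6.19, lay between the P-SSC arrays, at 5.57 and 6.92. Mki67 was not called, with a difference of -3.17 (SE 1.05, adjusted p = 0.0956). When both arrays numbered 2 of the SSC populations were dropped, 36 members were called, against 55.3% of all genes, and 33 of them were lower, against 30.9%, with all 14 mitotic genes among them. The 3 higher were Ccnd2, Cdkn1a and Cdkn1c. Leaving out 1 array gave 11 calls for either CD51+ array and 13 for either Osx+ array, and most or all calls were lost without either CD45+ array. The count without P-SSC array 1 is not read, since array 2 alone then stood for P-SSCs.

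In BM-SSCs 18 genes were lower than in CD45+ cells and 0 higher, against 8.02% lower and 2.94% higher of all genes. They were 12 of 14 mitotic genes, 3 of 11 replication genes (Mcm2, Mcm3 and Rrm1), Ccne2, Cdkn2c and Cdkn2d. Mki67 again missed the threshold, at -3.02 (SE 1.05, adjusted p = 0.128). The median of the proliferation genes was -2.92, beside 0.08 over all genes and -0.95 for the housekeeping genes, and without the 2 arrays these medians were -2.54, -0.03 and -0.67. Among called genes the largest differences were those of Kif11 at -5.42 (SE 0.581, adjusted p = 0.00247), Bub1 at -4.85 (SE 0.494, adjusted p = 0.00213), and Birc5 at -4.57 (SE 0.884, adjusted p = 0.0220), or -5.06, -4.85 and -3.96 without the 2 arrays. The BM-SSC levels of Kif11 and Bub1 were near the floor of the array. The count was 37 with array 2 of both SSC populations left out, against 44.2% of all genes, and 33 were lower, against 26.2%, with all 14 mitotic genes among them. The 4 higher were Ccnd1, Ccnd2, Cdkn1a and Cdkn1c. Leaving out 1 array gave 5 without either CD45+ array, 11 without BM-SSC array 2 and 30 without either P-SSC array.

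In CD51+ BMSCs the gap to CD45+ cells was called in the mitotic genes and in 1 inhibitor. Of 39 genes 10 were lower and 0 higher, against 3.66% lower and 4.25% higher of all genes, and they were 9 of 14 mitotic genes and Cdkn2c. The median difference of the proliferation genes was -1.63, beside -0.07 over all genes. Aurkb differed by -3.21 (SE 0.561, adjusted p = 0.0187), Plk1 by -3.19 (SE 0.393, adjusted p = 0.00621) and Bub1 by -2.93 (SE 0.494, adjusted p = 0.0168). A fit that left out array 2 of both SSC populations called 35 members, against 43.2% of all genes, and 32 were lower, against 24.2%, with all 14 mitotic genes among them, while Ccnd2, Cdkn1a and Cdkn1c were higher. No member was called without either CD45+ array or without either CD51+ array.

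In Osx+ cells 13 genes were lower than in CD45+ cells and 2 higher, against 7.05% lower and 4.91% higher of all genes. The lower genes were 9 of 14 mitotic, 3 of 11 replication (Cdc6, Mcm2 and Mcm3) and Ccne2, and the higher genes were Cdkn1a and Cdkn1c. The median of the proliferation genes was -2.44, beside 0.02 over all genes. The largest falls among called genes were those of Bub1 at -3.78 (SE 0.494, adjusted p = 0.00324), Aurkb at -3.72 (SE 0.561, adjusted p = 0.00612) and Kif11 at -3.64 (SE 0.581, adjusted p = 0.00781). Here too 35 members were called without array 2 of both SSC populations, against 48.8% of all genes, and 32 were lower, against 26.9%, with all 14 mitotic genes among them, while Ccnd2 joined Cdkn1a and Cdkn1c as higher. Leaving out 1 array gave 3 without either CD45+ array, 3 without Osx+ array 1, 7 without Osx+ array 2 and 24 without either P-SSC array.

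**Figure D3:**
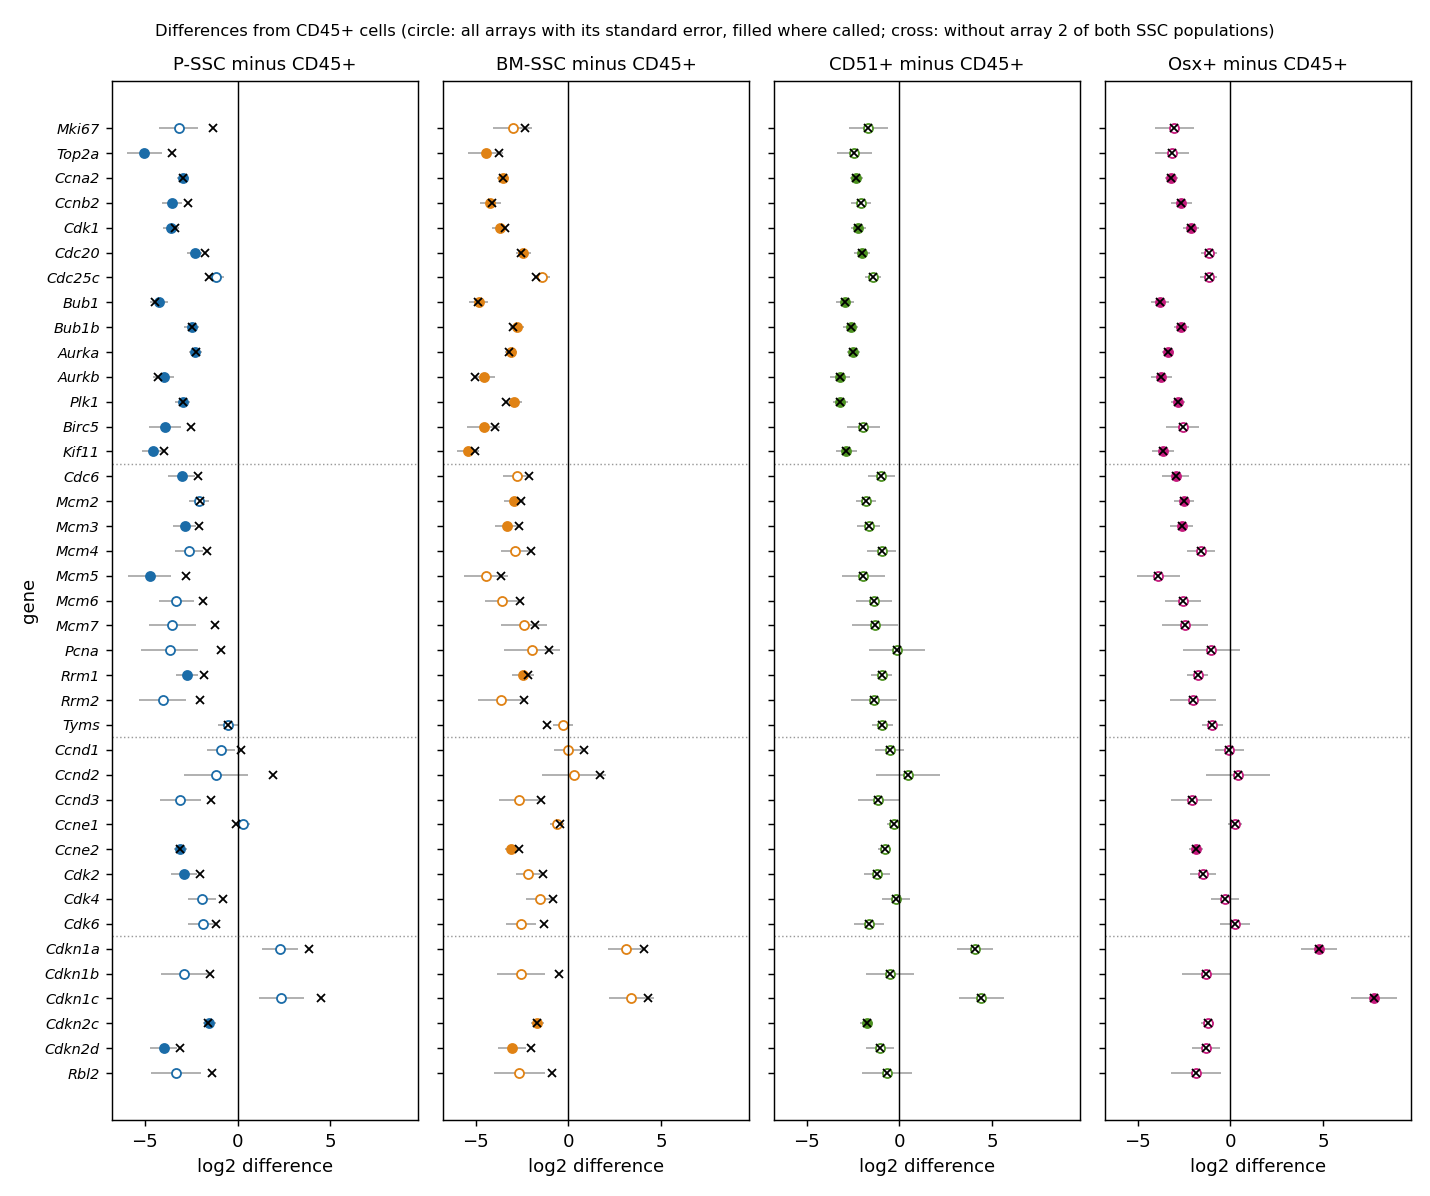
Log2 difference from CD45+ cells (horizontal axis) of the 39 genes in P-SSCs, BM-SSCs, CD51+ BMSCs and Osx+ cells. Circles are the fit on all arrays with its standard error, filled where called, crosses the values without array 2 of both SSC populations, and all 14 mitotic genes lie left of 0 in each panel while Cdkn1a and Cdkn1c lie right of it.

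The G1 cyclins and kinases differed among themselves. The median difference of the 8 genes from CD45+ cells was -1.91 in P-SSCs, -1.84 in BM-SSCs, -0.67 in CD51+ BMSCs and -0.18 in Osx+ cells, with 2, 1, 0 and 1 of them called lower and 0 called higher. Ccnd1, the mitogen-induced D-type cyclin, read 8.48 and 6.33 for P-SSCs, 9.13 and 7.42 for BM-SSCs, 8.59 for Nes+ BMSCs, 7.85 and 7.71 for CD51+ BMSCs, 8.26 and 8.27 for Osx+ cells and 8.44 and 8.18 for CD45+ cells. BM-SSC array 1 was highest and P-SSC array 2 lowest, Osx+ and CD45+ cells overlapped, and CD51+ BMSCs lay below both. Ccnd2, another D-type cyclin, read 11.09 and 4.98 for P-SSCs, 10.89 and 8.08 for BM-SSCs, 10.76 for Nes+ BMSCs, 9.62 and 9.66 for CD51+ BMSCs, 9.61 and 9.61 for Osx+ cells and 9.22 and 9.16 for CD45+ cells. P-SSC array 1, BM-SSC array 1 and the Nes+ array lay above every other array, by over 1 unit, while array 2 of both SSC populations lay below. Leaving those 2 arrays out, its difference from CD45+ cells was 1.90 (SE 0.157, adjusted p = 6.07e-05) in P-SSCs and 1.70 (SE 0.157, adjusted p = 0.000109) in BM-SSCs, and with them -1.15 (SE 1.74, adjusted p = 0.600) and 0.30 (SE 1.74, adjusted p = 0.920). Ccnd3, the D-type cyclin prominent in lymphoid cells, read 8.32 and 5.01 for P-SSCs, 8.29 and 5.91 for BM-SSCs, 7.29 for Nes+ BMSCs, 8.65 and 8.58 for CD51+ BMSCs, 7.26 and 8.05 for Osx+ cells and 9.81 and 9.70 for CD45+ cells. Its CD45+ values were the highest, and CD51+ BMSCs came next. The 3 D-type cyclins thus had 3 different orders over the populations.

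Cdk4, a partner of the D-type cyclins, read 7.82 and 5.50 for P-SSCs, 7.77 and 6.38 for BM-SSCs, 7.71 for Nes+ BMSCs, 8.61 and 8.21 for CD51+ BMSCs, 8.15 and 8.41 for Osx+ cells and 8.63 and 8.55 for CD45+ cells. CD51+ and CD45+ cells overlapped, and no array of either SSC population or of Nes+ BMSCs was above 7.82. Cdk6, the other partner, read 7.81 and 6.36 for P-SSCs, 7.62 and 5.17 for BM-SSCs, 5.69 for Nes+ BMSCs, 7.66 and 7.01 for CD51+ BMSCs, 9.08 and 9.36 for Osx+ cells and 8.83 and 9.11 for CD45+ cells. It was the 1 kinase of the group with its highest value in Osx+ cells, whose arrays overlapped with those of CD45+ cells. Of the 3 probe sets of Cdk6 only the 1 read here had a higher mean in Osx+ cells than in CD45+ cells. Cdk6 differed, in the fit without array 2 of both SSC populations, from Osx+ cells by -1.41 (SE 0.284, adjusted p = 0.0102) in P-SSCs, -1.60 (SE 0.284, adjusted p = 0.00894) in BM-SSCs and -1.88 (SE 0.232, adjusted p = 0.000794) in CD51+ BMSCs, none of which was called on all arrays. Ccne1, an E-type cyclin, read 6.82 and 7.57 for P-SSCs, 6.46 and 6.11 for BM-SSCs, 6.25 for Nes+ BMSCs, 6.81 and 6.36 for CD51+ BMSCs, 7.12 and 7.16 for Osx+ cells and 6.82 and 6.99 for CD45+ cells. Its values on this probe set were level, between 6.11 and 7.57, and the highest was on P-SSC array 2, where most other members were low. A second Ccne1 probe set was highest on CD45+ array 2, at 6.49, followed by P-SSC array 2, at 6.27. It was lowest in BM-SSCs, at 4.98 and 4.82, and in Nes+ BMSCs, at 5.14. Ccne2, the paralog of Ccne1, read 4.11 and 4.15 for P-SSCs, 4.57 and 3.70 for BM-SSCs, 3.59 for Nes+ BMSCs, 6.43 and 6.42 for CD51+ BMSCs, 5.37 and 5.37 for Osx+ cells and 7.22 and 7.22 for CD45+ cells. It split the populations into 4 levels without overlap, with both SSC populations and Nes+ BMSCs lowest, then Osx+ cells, CD51+ BMSCs and CD45+ cells. The lowest level was dim, at percentiles 28.7 and 21.6 of all genes on the P-SSC arrays, 37.6 and 14.1 on the BM-SSC arrays and 16.8 on the Nes+ array. Cdk2, the partner of both E-type cyclins, had its 2 highest values on the CD45+ arrays.

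**Figure D4:**
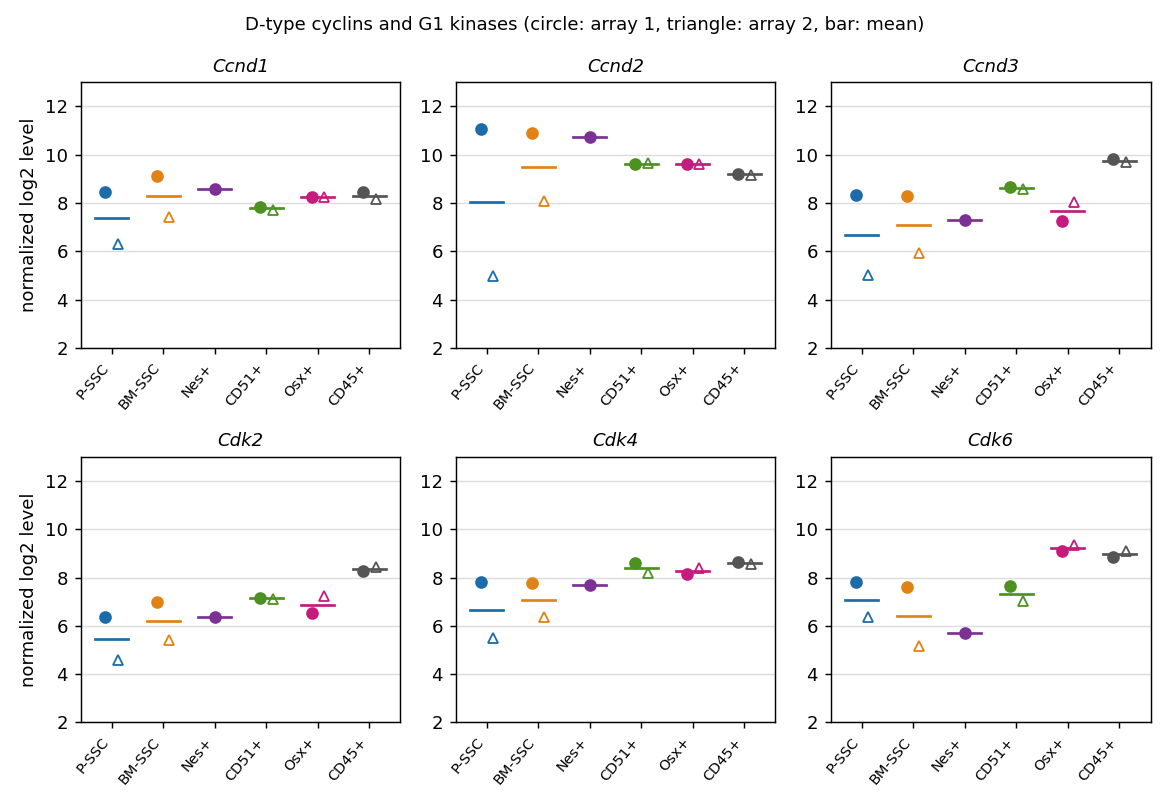
Normalized log2 level of the 3 D-type cyclins and of Cdk2, Cdk4 and Cdk6 in the 6 populations, with 1 point per array and the mean as a bar. On the probe sets shown, Ccnd2 is highest on array 1 of both SSC populations and on the Nes+ array, Cdk6 in Osx+ cells, and Ccnd3 and Cdk2 in CD45+ cells.

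The inhibitors did not move as a group. Cdkn1a (p21), a Cip/Kip inhibitor and p53 target, read 10.96 and 7.84 for P-SSCs, 11.17 and 9.26 for BM-SSCs, 10.96 for Nes+ BMSCs, 11.26 and 11.13 for CD51+ BMSCs, 11.92 and 11.84 for Osx+ cells and 7.18 and 7.03 for CD45+ cells. Both CD45+ arrays were lowest, and the stromal arrays other than P-SSC array 2 and BM-SSC array 2 lay between 10.96 and 11.92. It rose in Osx+ cells against CD45+ cells by 4.77 (SE 0.978, adjusted p = 0.0220), a call lost without any 1 of the Osx+, CD45+ or CD51+ arrays. The difference from CD45+ cells was 2.29 (SE 0.978, adjusted p = 0.147) in P-SSCs, 3.11 (SE 0.978, adjusted p = 0.0970) in BM-SSCs and 4.08 (SE 0.978, adjusted p = 0.0550) in CD51+ BMSCs, none of which was called. Once P-SSC array 2 and BM-SSC array 2 were dropped it was called in all 4, at 3.85 in P-SSCs, 4.06 in BM-SSCs, 4.08 in CD51+ BMSCs and 4.77 in Osx+ cells.

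Cdkn1c (p57), the Cip/Kip inhibitor linked to quiescence of stem cells and to growth plate cells leaving the cycle, read 8.73 and 4.49 for P-SSCs, 8.55 and 6.71 for BM-SSCs, 8.96 for Nes+ BMSCs, 8.46 and 8.85 for CD51+ BMSCs, 12.03 and 11.95 for Osx+ cells and 4.17 and 4.32 for CD45+ cells. Osx+ cells lay far above every other array, and CD45+ cells below all of them, with P-SSC array 2 closest. It rose in Osx+ cells against CD45+ cells by 7.75 (SE 1.22, adjusted p = 0.00729), the largest difference of any member in that comparison and a call lost without any 1 of the Osx+ or CD45+ arrays. The fit on all arrays did not call it in the others, and without array 2 of both SSC populations its difference from CD45+ cells was 4.48 (SE 0.206, adjusted p = 3.33e-06) in P-SSCs, 4.31 (SE 0.206, adjusted p = 3.99e-06) in BM-SSCs and 4.41 (SE 0.168, adjusted p = 9.05e-07) in CD51+ BMSCs. Osx+ cells also had the highest chondrocyte markers, with a median of 10 genes at 13.23 and 13.21, against 3.56 and 3.41 in CD45+ cells and 4.76 to 9.28 on the other arrays. The part of chondrocytes in the Cdkn1c level was not tested.

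Cdkn1b (p27), the third Cip/Kip inhibitor, read 7.71 and 4.94 for P-SSCs, 8.66 and 4.59 for BM-SSCs, 6.42 for Nes+ BMSCs, 8.78 and 8.61 for CD51+ BMSCs, 7.78 and 7.97 for Osx+ cells and 9.12 and 9.26 for CD45+ cells. It was highest in CD45+ cells and passed in none of the comparisons on all arrays. Cdkn2c (p18), an INK4 inhibitor of Cdk4 and Cdk6, read 7.67 and 7.81 for P-SSCs, 7.58 and 7.58 for BM-SSCs, 7.60 for Nes+ BMSCs, 7.63 and 7.40 for CD51+ BMSCs, 7.67 and 8.44 for Osx+ cells and 9.38 and 9.17 for CD45+ cells. Its 7 values in P-SSCs, BM-SSCs, Nes+ BMSCs and CD51+ BMSCs lay within 7.40 and 7.81, array 2 of both SSC populations included. Its difference from CD45+ cells was -1.53 (SE 0.352, adjusted p = 0.0364) in P-SSCs, and it was also called lower in BM-SSCs, at -1.70, and in CD51+ BMSCs, at -1.76. Without array 2 of both SSC populations these differences were -1.61, -1.70 and -1.76. In P-SSCs a further quantile normalization put that difference at 0.09 (adjusted p = 0.945). Cdkn2d (p19), another INK4 inhibitor, read 7.01 and 5.27 for P-SSCs, 8.13 and 6.07 for BM-SSCs, 7.37 for Nes+ BMSCs, 9.13 and 9.02 for CD51+ BMSCs, 8.69 and 8.95 for Osx+ cells and 10.17 and 10.09 for CD45+ cells. It was called lower in P-SSCs at -3.99 (SE 0.749, adjusted p = 0.0191) and in BM-SSCs at -3.03 (SE 0.749, adjusted p = 0.0492), and without those 2 arrays the difference in P-SSCs was -3.12 and that in BM-SSCs -1.996. P-SSC array 1 stood below all arrays of CD51+ BMSCs, Osx+ cells and CD45+ cells. Rbl2 (p130), the pocket protein of the DREAM complex, read 6.66 and 2.82 for P-SSCs, 7.16 and 3.65 for BM-SSCs, 6.27 for Nes+ BMSCs, 7.43 and 7.37 for CD51+ BMSCs, 5.997 and 6.38 for Osx+ cells and 8.10 and 8.02 for CD45+ cells. CD45+ cells were highest again, and the low values were those of P-SSC array 2 and BM-SSC array 2. A second Rbl2 probe set read 5.89 and 5.33 on those 2 arrays, so their low level held for only 1 of the 2 probe sets. Of the 6 genes 4 were thus highest in the population with the highest proliferation genes, and 2 were lowest there.

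**Figure D5:**
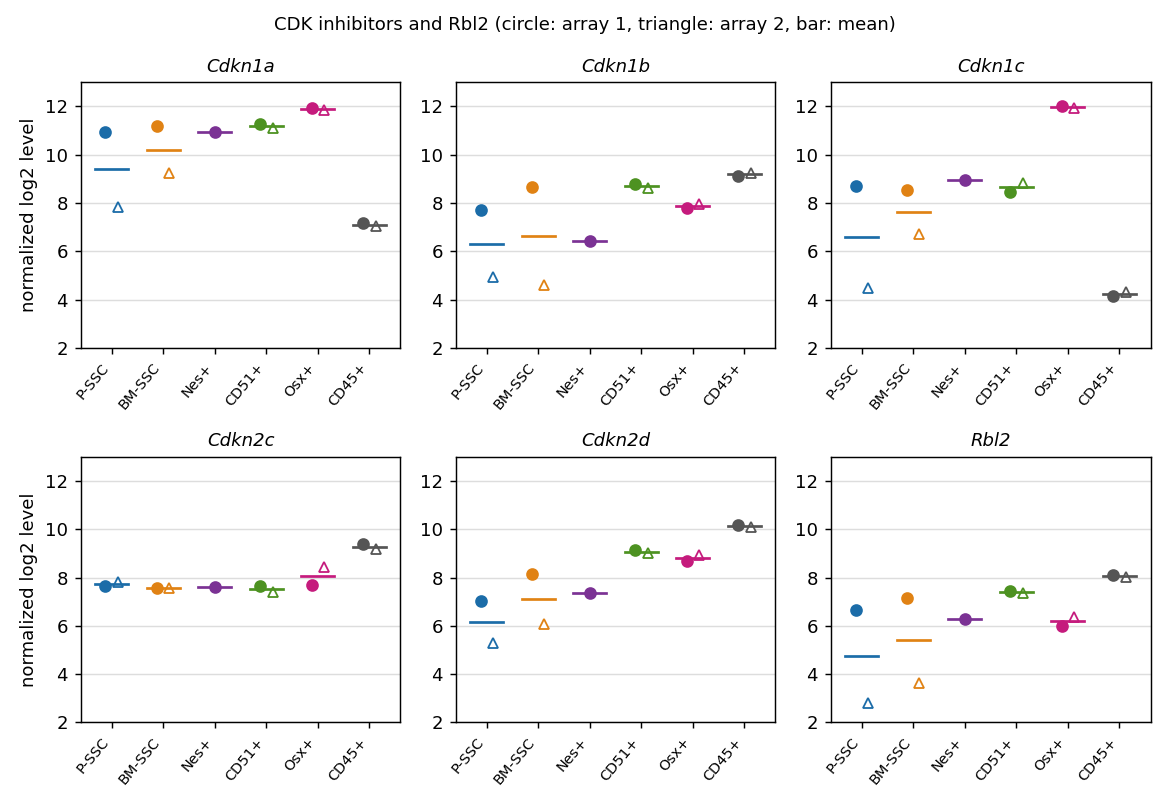
Normalized log2 level of 5 CDK inhibitors and Rbl2 in the 6 populations, with 1 point per array and the mean as a bar. CD45+ points are lowest for Cdkn1a and Cdkn1c and highest for the other 4 genes, and Osx+ cells stand highest for Cdkn1c.

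Between the stromal populations few members were called. Against Osx+ cells limma called 0 members in each of P-SSCs, BM-SSCs and CD51+ BMSCs, while 1.08%, 0.824% and 3.19% of all genes were called in these comparisons. At an unadjusted p under 0.05 there were 8, 7 and 6 of the 39 members, beside 3703, 2026 and 1990 of all 18193 genes. After leaving out array 2 of both SSC populations 10, 12 and 19 members were called, against 30.8%, 18.7% and 30.2% of all genes. In P-SSCs the largest fall among these was that of Cdkn1c at -3.27 (SE 0.206, adjusted p = 7.85e-05) and the largest rise that of Mki67 at 1.69 (SE 0.336, adjusted p = 0.00983), whose sign differed from the -0.13 on all arrays. In BM-SSCs they were Cdkn1c at -3.44 (SE 0.206, adjusted p = 8.12e-05) and Ccnd2 at 1.28 (SE 0.157, adjusted p = 0.00178). In CD51+ BMSCs 7 of the 11 replication genes were higher than in Osx+ cells and 0 lower, with Mcm5 at 1.96 (SE 0.337, adjusted p = 0.00433) and Cdc6 at 1.96 (SE 0.383, adjusted p = 0.00793), and all 11 had a positive difference on all arrays, where none was called. The counts on all arrays became 1 in CD51+ BMSCs and 1 in BM-SSCs without either P-SSC array. With P-SSC array 1 left out, P-SSCs were array 2 alone, whose housekeeping median was 5.31, and their count is not read here.

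Against CD51+ BMSCs 1 member was called in P-SSCs and 1 in BM-SSCs, and both times it was Ccne2, lower with a difference of -2.29 (SE 0.357, adjusted p = 0.0449) in P-SSCs and -2.29 (SE 0.357, adjusted p = 0.0452) in BM-SSCs. Of all genes 0.841% and 0.83% were called. At an unadjusted p under 0.05 there were 11 and 13 of the 39 members, beside 4317 and 2323 of all 18193 genes. In the absence of array 2 of both SSC populations the counts were 10 and 14, against 32.8% and 17.2% of all genes. In BM-SSCs 12 of the 14 were lower than in CD51+ BMSCs, among them 6 mitotic and 4 replication genes, and Ccnd1 and Ccnd2 were higher. The Ccne2 calls were lost without either array of CD51+, Osx+ or CD45+ cells, and without array 2 of the SSC population tested. They were also lost with the array number as a block, under a further quantile normalization, in a fit of only the populations compared and without dim probe sets, each of which gave 0 calls in both comparisons. The count in BM-SSCs was 2 without either P-SSC array. Without P-SSC array 1, P-SSCs were array 2 alone, and their count is not read here.

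Among the stromal populations the pan-leukocyte genes were highest in CD51+ BMSCs. The median of 10 pan-leukocyte genes was 6.52 and 5.49 for P-SSCs, 7.73 and 6.06 for BM-SSCs, 5.56 for Nes+ BMSCs, 10.23 and 10.27 for CD51+ BMSCs and 3.61 and 5.51 for Osx+ cells, against 12.039 and 12.004 for CD45+ cells. The median of 10 granulocyte genes, of early and later stages, was 12.96 and 13.09 in CD51+ BMSCs and 12.93 and 12.95 in CD45+ cells. Within that list S100a9, a gene of later granulocyte stages, read 14.59 and 14.66 in CD51+ BMSCs and 14.68 and 14.72 in CD45+ cells, whereas Elane, the elastase of early granulocyte precursors, read 6.41 and 5.64 in CD51+ BMSCs, against 9.41 and 9.73 in CD45+ cells. On the probe sets read, the highest stromal value of Cdk1 was 7.47 on Osx+ array 2 and that of Cdc20 8.72 on Osx+ array 1. For Plk1 it was 6.28 on BM-SSC array 2 and for Aurka 6.03 on P-SSC array 1. CD51+ BMSCs had the highest stromal levels of Mki67, Top2a, Mcm5 and Rrm2 on these probe sets, leaving aside Mki67 on P-SSC array 1. They combined these with blood cell markers, and the part of blood cells in their proliferation genes was not tested.

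Arrays of the same population also differed in step. In Osx+ cells 29 of the 33 proliferation genes were higher on array 2 than on array 1 and 3 lower, with a median difference of array 1 minus array 2 of -0.53, beside -0.06 over all genes. Blood cell lists were also higher on array 2, with medians on array 1 and array 2 of 3.61 and 5.51 for the pan-leukocyte genes, 4.56 and 8.65 for the granulocyte genes of early and later stages, 4.49 and 5.44 for 8 erythroid genes and 3.92 and 3.99 for 9 genes of B cell precursors. In CD51+ BMSCs 30 of 33 genes were higher on array 1, with a median difference of 0.40. Here the medians on array 1 and array 2 were 10.23 and 10.27 for the pan-leukocyte genes, 12.96 and 13.09 for the granulocyte genes, 7.49 and 6.92 for the erythroid genes and 5.61 and 4.23 for the B cell precursor genes, so only the last 2 lists were higher on array 1. In CD45+ cells 15 genes were higher on array 1 and 18 on array 2. The part of blood cells in these differences was not tested.

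No member was called between P-SSCs and BM-SSCs on all arrays. Limma called 0 of 39 members and 0.0% of all genes, and 2 members had an unadjusted p under 0.05, beside 371 of all 18193 genes. The median difference of the proliferation genes was 0.12, that of the 14 mitotic genes was 0.44, that of the 11 replication genes -0.23 and that of the 8 G1 genes -0.43, beside 0.04 over all genes. On array 1 of each population all 14 mitotic genes and 10 of the 11 replication genes were higher in P-SSCs, with 0 replication genes lower, and the median over the 33 proliferation genes was 0.43, beside 0.01 over all genes. This sets 1 array against 1 and has no replicate. The median of the granulocyte genes of early and later stages was 9.95 on the P-SSC array and 10.07 on the BM-SSC array, the pan-leukocyte median 6.52 and 7.73, the erythroid median 7.03 and 5.63 and the B cell precursor median 4.83 and 4.37, and their part in the differences was not tested. In the fit without array 2 of both SSC populations 1 member was called, Cdkn2d at -1.12 (SE 0.210, adjusted p = 0.0461), against 2.46% of all genes.

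BM-SSCs and Nes+ BMSCs, which differ in the demand for the Mx1 reporter, also gave 0 limma calls among the members and 0.0% among all genes, with 0 members at an unadjusted p under 0.05. Nes+ BMSCs had 1 array. With array 2 of both SSC populations left out, and so with 1 array against 1, 10 members were called, against 30.5% of all genes. The largest were Cdkn1b at 2.25 (SE 0.209, adjusted p = 0.00271) and Rrm2 at 2.23 (SE 0.301, adjusted p = 0.00513), and Tyms, which was near the floor, was the 1 that was lower.

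Other genes of the same pathways were read as lists. Of 28 other mitosis genes 23 were called lower than CD45+ cells in P-SSCs, 23 in BM-SSCs, 18 in CD51+ BMSCs and 19 in Osx+ cells, and 0 were higher, beside 9.39%, 8.02%, 3.66% and 7.05% of all genes called lower. Without array 2 of both SSC populations 25 were lower in each population, beside 30.9%, 26.2%, 24.2% and 26.9%, and leaving out 1 array gave 3 to 24 in P-SSCs, 9 to 24 in BM-SSCs, 0 to 23 in CD51+ BMSCs and 5 to 24 in Osx+ cells, and a fit without a CD45+ array gave each lowest count. The differences of single list genes are given on all arrays only. The centromere histone Cenpa differed by -4.73 (SE 0.750, adjusted p = 0.0109) and the kinetochore protein Spc25 by -4.04 (SE 0.469, adjusted p = 0.00323) in P-SSCs. Cenpa read 5.86 on P-SSC array 1 and 3.48 on P-SSC array 2, against 9.37 and 9.42 on the CD45+ arrays. Of 23 other replication genes 10 were lower in P-SSCs, 11 in BM-SSCs, 3 in CD51+ BMSCs and 12 in Osx+ cells, and without the 2 arrays 21, 22, 20 and 22, and the clamp loader subunit Rfc4 differed by -4.19 (SE 0.667, adjusted p = 0.0109) in BM-SSCs. Of 19 genes of the RB, E2F and DREAM group 8 were lower in P-SSCs, 6 in BM-SSCs, 3 in CD51+ BMSCs and 5 in Osx+ cells, and without the 2 arrays 12, 11, 13 and 14. They included Rbl1 (p107), a pocket protein of cycling cells, at -3.99 (SE 0.375, adjusted p = 0.00162) in P-SSCs and -2.81 (SE 0.375, adjusted p = 0.00802) in CD51+ BMSCs, and the activator E2f2 at -4.33 (SE 0.530, adjusted p = 0.00243) in Osx+ cells. Of 13 other CDK inhibitors and p53 targets Phlda3, a p53 target that restrains Akt, was higher in each of the 4 populations, by 2.66 (SE 0.584, adjusted p = 0.0315) in P-SSCs and 3.35 (SE 0.584, adjusted p = 0.0186) in CD51+ BMSCs, Bbc3 (Puma) was higher in Osx+ cells, and Cdkn3, a phosphatase of cycling cells, was lower in each. Of 15 other quiescence genes Gas1, a growth arrest gene, was called higher in BM-SSCs at 6.09 (SE 1.40, adjusted p = 0.0396) and in CD51+ BMSCs at 7.06 (SE 1.40, adjusted p = 0.0289), Gas6, a ligand of TAM receptors, was higher in BM-SSCs at 6.93 (SE 1.58, adjusted p = 0.0379), and none was called in P-SSCs or Osx+ cells. Without the 2 arrays CD51+ BMSCs had 7 quiescence genes higher and 4 lower, beside 3472 higher and 4396 lower of all 18193 genes. Osx+ cells had 8 higher and 3 lower, beside 3995 higher and 4891 lower of all genes. Of the CDK inhibitors and p53 targets 3 were higher in CD51+ BMSCs and 8 in Osx+ cells, and 3 were lower in each. Each SSC population was then 1 array, and its counts in both lists are not read. No replication gene was called lower in P-SSCs or BM-SSCs without either CD45+ array, and no quiescence or p53 list gene was called higher in any of the 4 populations without either CD45+ or either CD51+ array. In the other 7 comparisons no gene of these 5 lists was called on all arrays.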

How the data were processed

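Gene expression in the 6 populations was read on 11 whole-genome Affymetrix arrays. The deposited values are log2 levels that the authors made with RMA (background correction, quantile normalization and median polish) in Partek GS and R, and per the study's methods they were compared with limma, whose version is not given in the sources used here. These log2 values were used as deposited. The 64 control probe sets were left out, which left 45037.

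A linear model with a mean for each population was fitted to the 11 arrays with limma 3.58.1 in R 4.3.3 (5 residual and 2.65 prior degrees of freedom). P-values came from moderated tests, adjusted by Benjamini-Hochberg over all probe sets within each of 11 comparisons, and a gene was called at an adjusted p under 0.05. The fit was also run on simulated data in which a probe set had the same spread on every array. In the real data the root mean square SD was 1.33 in P-SSCs and 1.00 in BM-SSCs. It was 0.17 to 0.28 in CD45+, CD51+ and Osx+ cells. The simulation therefore cannot show how the fit behaves with unequal spread. Probe sets were named from the array's annotation, with 34945 tested probe sets of 1 symbol and 932 of several. Among the members 28 had over 1 probe set, and 9 of the chosen ones end in x_at or s_at, which can bind related transcripts.

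The labels do not say whether the 2 arrays of a population came from separate mice, which the study calls biological repeats, so p-values measure only the spread between these arrays. The number of arrays limits the precision. The members and lists were chosen with earlier results of these data known. In each comparison up to 3 called members per direction with the largest difference were named with their test, as were up to 3 called genes of a list of other genes. Tests of further members, and the list genes named out of these, were picked after their values were seen. Deviations of same-numbered arrays from their population means correlated at 0.78 between P-SSCs and BM-SSCs and at -0.27 to 0.01 in the other 9 pairs of populations, so array numbers were not used as pairs. Alternatives were a further quantile normalization, median centring, a fit of only the populations compared, leaving out dim probe sets, a robust fit with a variance trend, a block for array number, the mean of a gene's probe sets, and leaving out arrays.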

Additional observations from a re-analysis of the deposited data

How the results depend on the processing

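In the fit without P-SSC array 1, array 2 alone stood for P-SSCs. That fit gave the highest P-SSC counts among those with 1 array left out. Counts of members called (on all arrays 20 in P-SSCs, 18 in BM-SSCs, 10 in CD51+ BMSCs and 15 in Osx+ cells against CD45+ cells, 1 in P-SSCs and 1 in BM-SSCs against CD51+ BMSCs, and 0 in the other 5 comparisons) moved most with the choice of arrays. Without array 2 of both SSC populations they were 36, 37, 35 and 35 against CD45+ cells, 10, 12 and 19 in P-SSCs, BM-SSCs and CD51+ BMSCs against Osx+ cells, 10 and 14 in P-SSCs and BM-SSCs against CD51+ BMSCs, 1 for P-SSCs against BM-SSCs and 10 for BM-SSCs against Nes+ BMSCs, with fewer arrays in the fit. Leaving out 1 array at a time gave 0 to 34 for P-SSCs, 5 to 30 for BM-SSCs, 0 to 14 for CD51+ BMSCs and 3 to 24 for Osx+ cells against CD45+ cells. The ranges were 0 to 22, 0 to 2 and 0 to 1 against Osx+ cells, 0 to 26 and 0 to 2 against CD51+ BMSCs, 0 to 5 for P-SSCs against BM-SSCs and 0 to 0 for BM-SSCs against Nes+ BMSCs.

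A fit of only the populations compared, with fewer arrays, gave 0 in P-SSCs, 8 in BM-SSCs, 36 in CD51+ BMSCs and 34 in Osx+ cells against CD45+ cells, 12 in CD51+ BMSCs against Osx+ cells, and 0 and 0 against CD51+ BMSCs. A further quantile normalization gave 11, 11 and 8 in P-SSCs, BM-SSCs and Osx+ cells against CD45+ cells and 0 and 0 in P-SSCs and BM-SSCs against CD51+ BMSCs, and turned Cdkn2c in P-SSCs against CD45+ cells to 0.0907. The cause was not tested. The mean of a gene's probe sets gave 23 in Osx+ cells against CD45+ cells. Leaving out dim probe sets gave 0 and 0 against CD51+ BMSCs. The variance trend with robust estimation and median centring kept every count within 1.5 times the main count.

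Same-numbered arrays deviated together, at a correlation of 0.78, in P-SSCs and BM-SSCs, and not in the other 9 pairs of populations, at -0.27 to 0.01. With the array number as a block the counts were 21, 20, 11 and 15 against CD45+ cells, 0 and 0 in P-SSCs and BM-SSCs against CD51+ BMSCs, and 0 in the other comparisons. Of 65 called gene results 63 held under the block, 65 without array 2 of both SSC populations, 61 under median centring, 34 under quantile normalization, 11 without CD45+ array 1 and 8 without CD45+ array 2.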
